A study of Mus musculus with 16 samples.

Results

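Lipopolysaccharide (LPS), the endotoxin of Gram-negative bacteria, is sensed on macrophages by Toll-like receptor 4 and is best known for switching on cytokine and chemokine genes within an hour. Transcripts that go down in the same hour are less often described. Messenger RNA can drop this quickly where it is short-lived or is actively degraded, and many transcripts with short half-lives encode transcription factors, zinc finger proteins and regulators of signalling. The genes described here are 91 named genes with at least 1 array feature that was at least 2-fold lower after LPS in cells that received only the solvent DMSO. The question put to them is what they did in cells that had first received cordycepin (3'-deoxyadenosine), an adenosine analogue known to interfere with polyadenylation.

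The cells were RAW 264.7, a mouse macrophage-like line kept in culture, in low serum for a day before treatment. Cultures received DMSO or 20 µM cordycepin in DMSO for 60 min, and LPS at 1 µg/ml or no LPS for a further 60 min, so that every culture was lysed 120 min after the first addition. The 4 conditions, called DMSO, cordycepin, LPS+DMSO and LPS+cordycepin, each had 4 replicates, and the wells of a replicate stood on 1 plate on a day of its own. The 16 RNA samples were hybridised to single-colour Agilent arrays, with replicates 1 and 2 on 1 slide and replicates 3 and 4 on the other. All samples come from 1 cell line, so the replicates measure the spread between culture days and not between animals.

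The members were chosen from the authors' value table. Features annotated to a RefSeq messenger RNA (accession beginning NM_) were considered. They were kept where the mean of the 4 LPS+DMSO arrays lay at least 1 log2 unit below the mean of the 4 DMSO arrays. For each gene 1 feature was then taken, that of the highest mean over all 16 arrays among those past the limit. With the brightest feature of each gene chosen before the limit was applied, 81 genes met it. Of 17107 features so annotated, 110 met the limit, and they stood for 91 of the 11473 named genes in the table (0.793%). The LPS+DMSO and DMSO arrays therefore chose the genes, and the difference between them is given below as a description without a test. The 3 members nearest to the limit were Wfikkn1 at -1.0038, P2rx7 at -1.0041 and Zfp473 at -1.0102, and the 3 genes nearest to it on the other side were Pdp1 at -0.9990, Rab40c at -0.9989 and Inip at -0.9970.

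All levels below are log2 signals from the scanner output, each array set to its own 75th percentile, and a difference of 1 on this scale is a 2-fold difference. Spots well above background made up 37.1% to 51.2% of each array, with more of them on the second slide. All 8 macrophage markers examined were above background on all 16 arrays, against 2 of 4 T cell markers (Cd3e and Cd4) and none of the 3 B cell, 4 fibroblast and 3 epithelial markers. All 10 of the LPS-induced genes kept as a check of the stimulus rose at least 2-fold in LPS+cordycepin over cordycepin, with a median of 4.51, and none of 7 reference genes passed the test. DMSO replicate 2 stood apart for some members: it lay more than 1 log2 unit above the other 3 DMSO arrays in 6 of them, namely Cdhr3, Cdsn, Col4a1, Gbp11, Zfp760 and Fcgr1. When that array was left out of the rule, 76 of the 91 genes still met the limit, against 81 to 89 when any other array of the choice was left out.

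The independent look at these genes is the comparison of LPS+cordycepin with cordycepin, since neither condition entered the limit that chose them. Both did enter the mean that picked 1 feature for a gene with several. The comparison was tested with limma over 21591 probes, fitted on all 16 arrays. A member was called when its adjusted p was under 0.05 and the difference at least 2-fold. Of the 89 members bright enough to be tested, 48 (53.9%) were called lower in LPS+cordycepin, against 1.35% of all tested probes. Without the limit on fold, 72 members (80.9%) were lower at an adjusted p under 0.05, against 4.5% of all tested probes. By limma no member was higher, against 1.64% of tested probes at 2-fold and 3.38% at any fold, and none was higher at an unadjusted p under 0.05 either. With DMSO replicate 2 left out of the fit the same comparison gave 48 of 89 members called and 77 lower at any fold. After another background correction (normexp) 18 of 89 were called, against 0.333% of probes, and on the 8 arrays of slide 1 alone 31, against 0.704%. As the RNA came from whole cultures, fewer cells expressing a gene and less RNA per cell cannot be told apart.

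The median difference between LPS+cordycepin and cordycepin was -1.05 over the 91 members, with quartiles of -1.33 and -0.83, while the median over all tested probes was -0.05. Taken day by day the members' median was -0.99, -0.98, -1.08 and -1.14, a spread of 0.0781 (SD, n = 4). The value lay below 0 in 90 members, and the exception was Cdhr3 at 0.11, 1 of the 2 members too dim to be tested. Levels in LPS+cordycepin were lower on 4 of 4 days in 88 members, where 21.4% of all tested probes had this pattern. The 4 LPS+cordycepin arrays lay wholly below the 4 cordycepin arrays in 78 of the 89 tested members, against 9.17% of tested probes. Of the 91 members, 59 were above background on all 16 arrays, and 28 of these 59 were called when the test was run on such probes only, against 0.554% of them. A member may have passed the brightness filter through its level in DMSO alone. With brightness required in 1 of the cordycepin conditions instead, 44 of 81 members were called, against 1.3% of probes.

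The selected difference, LPS+DMSO minus DMSO, had a median of -1.54 on the log2 scale of the scanner values and ran from -4.15 to -0.99. In cordycepin the fall was smaller in 85 of the 91 members and larger in 6, namely Agfg2, 9130008F23Rik, AI467606, Zfp128, Zfp398 and Zfp94. The first of these differences helped to choose the members and the second did not, so their sizes were not tested against each other. Across the 91 members the 2 differences had a Pearson r of 0.67 and a Spearman rho of 0.62, and over the 59 members above background throughout, 0.57 and 0.48. These are descriptions across genes measured on the same days and slides.

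**Figure D1:**
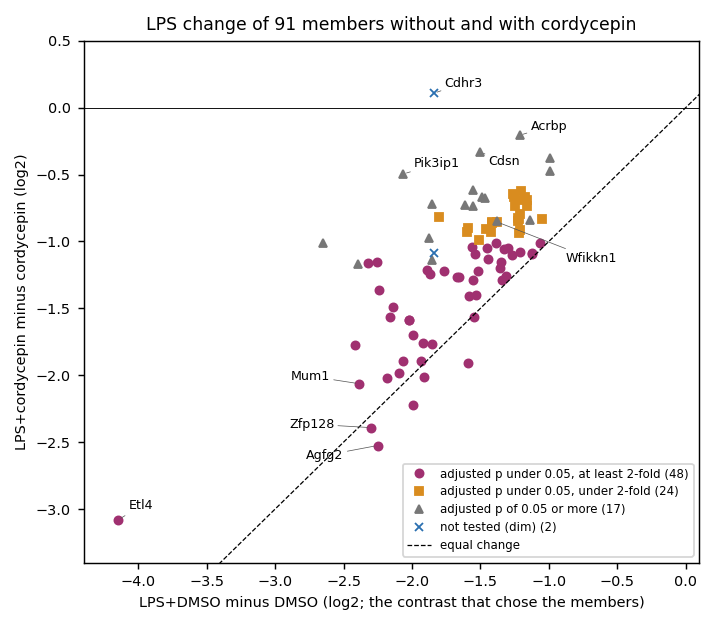
Each point is 1 of the 91 members, with its LPS change in DMSO on the x axis, which chose the members, and its LPS change in cordycepin on the y axis, both as log2 differences of 4-array means. All points but Cdhr3 lie below 0 on the y axis, and 85 lie above the dashed line of equal change.

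Zinc finger proteins were the largest recognisable group. Most of these are DNA-binding repressors or activators of transcription, and many of the mouse genes lie in clusters of related copies. By the words of their descriptions on the array, 19 of the 91 members (20.9%) were zinc finger genes, against 455 of the 11473 genes in the value table (3.97%). In LPS+cordycepin, 17 of these 19 fell at an adjusted p under 0.05 and 13 of them at least 2-fold, with a median difference of -1.22. Of all tested probes, 4.5% fell and 1.35% at least 2-fold. The exceptions were Zfp473 (-0.67, adjusted p = 0.234) and Zfp874b (-0.72, adjusted p = 0.194), both of which had overlapping groups. With the replicate number, which is the culture day, as a block, Zfp874b passed (adjusted p = 0.0141).

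Zfp61 read 10.37, 10.62, 10.75 and 10.68 in the 4 DMSO arrays and 8.31, 8.44, 8.44 and 8.57 in LPS+DMSO. It read 10.03, 10.00, 10.08 and 9.93 in cordycepin and 8.53, 8.56, 8.51 and 8.18 in LPS+cordycepin. The levels with LPS were thus alike with and without cordycepin, about 2 log2 units below DMSO, and they did not overlap with those without it. The fall in cordycepin was 2.96-fold (log2 -1.56, SE 0.11, adjusted p = 1.05e-07). Zfp82 had the same shape, with 9.12, 9.13, 8.999 and 9.27 in cordycepin against 7.65, 7.73, 7.33 and 7.46 in LPS+cordycepin, a 3.00-fold fall (SE 0.10 log2, adjusted p = 7.89e-08). Its arrays in DMSO lay between 9.47 and 9.77, and those in LPS+DMSO between 7.51 and 7.73.

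The largest falls of the group in cordycepin were in dim genes. Zfp128 read 5.38, 5.95, 5.99 and 6.19 in cordycepin and 4.03, 3.34, 2.89 and 3.67 in LPS+cordycepin, where no array was well above background. Only 2 of its 4 cordycepin arrays were well above background either, so its fold is uncertain. Against the lowest signal well above background on the LPS+cordycepin arrays it was 1.42-fold, not a firm bound, although the fit gave an adjusted p of 8.86e-06. Zfp94 was not well above background on any LPS+cordycepin array either, and its level in cordycepin was at least 2.13-fold higher (adjusted p = 0.000147). Zfp398 fell 4.04-fold in cordycepin (SE 0.27 log2, adjusted p = 0.000144) and Zfp467, a zinc finger regulator known from fat and bone progenitors, 3.96-fold (SE 0.32 log2, adjusted p = 0.000771) at the member probe, with 1 and 3 of 4 LPS+cordycepin arrays above background.

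Among the brightest, Zfp688 fell 1.80-fold (adjusted p = 0.000195) and Zfp217, an oncogene-encoded repressor, 1.73-fold (adjusted p = 0.000663), both under the 2-fold limit. Zfp760 was 1.76-fold lower (adjusted p = 0.0301, but 0.083 to 0.223 without replicate 1, 3 or 4), and its DMSO arrays read 8.14, 9.45, 8.36 and 8.31, with replicate 2 well above the rest.

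Of the 19 zinc finger members, 9 (47.4%) lay on chromosome 7, against 76 of the 455 zinc finger genes in the value table (16.7%), 925 of all 11473 genes (8.06%) and 4 of the other 72 members (5.56%). In the mm9 build used by the array files, the probe for Zfp61 was at chr7:25076136-25076195 and that for Zfp94 at chr7:25087574-25087633, and the probes for Zfp30, Zfp82 and Zfp566 began at positions 30579489, 30841071 and 30862504. The annotation in the files names the transcript of each probe but not its exon, and whether probes of related zinc finger genes share sequence was not checked. Zfp553, also on chromosome 7, read 8.97, 8.96, 9.06 and 9.09 in cordycepin and 7.59, 7.73, 7.81 and 7.92 in LPS+cordycepin, with little spread in either group (log2 -1.26, SE 0.10, adjusted p = 3.61e-07). Zfp30 and Zfp566 fell 2.23-fold and 2.19-fold (adjusted p = 0.000484 and 1.44e-05). Zfp30, Zfp94, Zfp553 and Zfp566 were picked with their values in view.

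Zinc finger genes that were not members differed less by their median. A wider list of such genes taken by symbol held 416 tested non-members, of which 64 fell and 18 rose in LPS+cordycepin at an adjusted p under 0.05, with a median of -0.13. At 2-fold, 8 were lower and 3 higher. Over all 10954 named genes tested by their brightest probe, 465 (4.25%) fell and 407 (3.72%) rose, 0.73% and 1.72% at least 2-fold, with a median of -0.04. On chromosome 7, 13 of the 65 non-member zinc finger genes fell and 4 rose.

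The promoters of 3 members are shown because each holds the 8-letter palindrome TGACGTCA, the textbook full site of the cyclic AMP response element, in the 250 bases before the annotated start. Cbx8 is a Polycomb gene described below, and Zfp473 and Zfp874b are the zinc finger members that did not pass the test without the block. The sequences are from RefSeq on GRCm38.p6, 5′ to 3′ on the gene's strand, all 3 from the minus strand, with the motif in capitals. The windows are chr11:119040914-119041163, chr7:44748618-44748867 and chr13:67484254-67484503, and the motif begins 29, 155 and 12 bases before the start. Zfp473 has further annotated starts, and their windows (chr7:44748342-44748641 and chr7:44748300-44748599) also hold the motif, at a site not printed here.
Cbx8: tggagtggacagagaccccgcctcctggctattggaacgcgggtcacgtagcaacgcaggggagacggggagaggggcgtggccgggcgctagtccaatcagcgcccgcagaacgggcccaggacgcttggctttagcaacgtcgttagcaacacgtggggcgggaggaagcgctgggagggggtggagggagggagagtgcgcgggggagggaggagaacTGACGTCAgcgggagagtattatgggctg
Zfp473: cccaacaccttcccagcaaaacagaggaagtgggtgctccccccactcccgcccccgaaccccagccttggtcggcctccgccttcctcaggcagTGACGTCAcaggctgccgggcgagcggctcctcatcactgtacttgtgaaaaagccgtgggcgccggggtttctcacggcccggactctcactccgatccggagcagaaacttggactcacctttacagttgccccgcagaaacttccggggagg
Zfp874b: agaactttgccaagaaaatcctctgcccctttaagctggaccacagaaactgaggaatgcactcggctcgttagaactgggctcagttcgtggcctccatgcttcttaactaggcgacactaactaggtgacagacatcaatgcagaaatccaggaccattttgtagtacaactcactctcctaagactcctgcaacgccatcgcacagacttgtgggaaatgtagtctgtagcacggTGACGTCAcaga

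Promoter windows of 300 bases, 250 before and 50 after the start, were matched for 74 of the 91 members and for 8317 of the tested named genes. Both strands were searched, and matches of different motifs may overlap. TGACGTCA was in the windows of 4 of the 74 members (5.41%), against 3.81% of the tested genes and 2.03% of all 27025 genes with a window. The E-box CACGTG was in 12 members (16.2%, against 12.1% of tested genes), the AP-1 motif TGANTCA, where N is any base, in 7 (9.46% against 6.10%) and the TATA box TATAAA in 5 (6.76% against 8.77%). None of the last 3 motifs was in the windows of the 16 zinc finger members matched. The members' windows had a median GC content of 58.2% and a CpG observed-to-expected ratio of 0.641, against 60.7% and 0.753 for the tested genes. These shares describe letters in fixed windows and say nothing of binding.

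Of the 4 members described as regulators of transcription or chromatin outside the zinc finger genes, 3 fell in LPS+cordycepin at an adjusted p under 0.05 and 2 of them at least 2-fold. The shares over all tested probes were 4.5% and 1.35%. Hhex, a homeobox factor of blood and liver development, read 12.01, 11.62, 12.04 and 11.94 in DMSO and 10.41, 10.35, 10.37 and 9.79 in LPS+DMSO. In cordycepin it read 11.21, 11.15, 11.23 and 11.14, and in LPS+cordycepin 10.08, 9.93, 9.86 and 9.82. All 4 cordycepin arrays lay below all 4 DMSO arrays, and LPS+cordycepin was 2.40-fold lower than cordycepin (log2 -1.26, SE 0.13, adjusted p = 1.44e-05). Irf2bp2, a corepressor that partners the interferon regulatory factor IRF2, fell 1.62-fold in cordycepin (adjusted p = 0.0101, but 0.0697 and 0.0929 when replicate 3 or 4 was left out). Pbxip1, a cofactor of PBX homeobox proteins, was bright in every condition and its difference of -0.37 did not pass the test (adjusted p = 0.381).

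Hhex and Irf2bp2 were the only members on a list of myeloid transcription regulators. Of the 28 genes of that list that were tested, 3 fell and 7 rose in LPS+cordycepin at an adjusted p under 0.05. Over all named genes tested by their brightest probe, 4.25% fell and 3.72% rose, the shares to set beside this list and those below. Cry2, a repressor of the circadian clock, was the only one of 11 clock genes that fell, and 1 rose. Cry2 read 10.74, 10.61, 10.72 and 10.59 in cordycepin and 9.82, 9.58, 9.65 and 9.57 in LPS+cordycepin (2.01-fold, SE 0.11 log2, adjusted p = 1.44e-05). Its fall sat at the 2-fold limit, and its groups did not overlap.

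Polycomb and Hox genes, picked out after their values were seen, were represented by Cbx2, Cbx8 and Hoxb3. CBX2 and CBX8 are chromobox subunits of Polycomb repressive complex 1, which reads methylated histone H3, and the Hox genes are classical targets of that complex. Cbx2 read 7.89, 7.71, 7.99 and 8.04 in cordycepin and 6.20, 5.76, 6.23 and 6.33 in LPS+cordycepin, a 3.42-fold fall (SE 0.14 log2, adjusted p = 3.99e-07). Cbx8 was low in cordycepin without LPS, at 5.97, 6.68, 6.09 and 5.96 against 7.78, 8.05, 8.06 and 8.07 in DMSO. It was lower still, at 4.70, 5.05, 5.52 and 4.57, in LPS+cordycepin (2.31-fold, SE 0.21 log2, adjusted p = 0.00138), where only 1 array was above background. Hoxb3 fell 1.91-fold (adjusted p = 0.00321, but 0.0625 without replicate 4) and has no value for DMSO replicate 1, whose spot was marked an outlier. Of 30 chromatin enzymes on a fixed list, none of them a member, 1 fell and 1 rose.

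Of the 4 kinases and phosphatases by description, 2 fell and 1 of them at least 2-fold, against 4.5% and 1.35% of all tested probes. Dusp6, the phosphatase that inactivates ERK, read 11.03, 11.14, 11.03 and 11.04 in cordycepin and 10.11, 9.92, 9.64 and 9.42 in LPS+cordycepin. The fall was 2.45-fold (log2 -1.29, SE 0.17, adjusted p = 8.45e-05), next to a selected change of -1.34 in DMSO. Pik3ip1, a membrane protein that restrains phosphoinositide 3-kinase, read 8.64, 9.24, 8.92 and 8.70 in DMSO and 6.52, 7.08, 7.02 and 6.61 in LPS+DMSO. In cordycepin it read 8.54, 8.59, 8.93 and 8.95, and in LPS+cordycepin 8.21, 8.22, 8.45 and 8.15.

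Pik3ip1 thus lay about 2 log2 units lower with LPS in DMSO, while in cordycepin the difference of -0.50 did not pass the test (SE 0.16, adjusted p = 0.0785). The 4 LPS+cordycepin arrays still lay below the 4 cordycepin arrays, and with the replicate number as a block the adjusted p was 0.0351. Cdk20, a cyclin-dependent kinase linked to cilia and growth, fell 1.91-fold (adjusted p = 6.64e-05). On the list of G protein and Ras signal regulators, to which Dusp6 and Pik3ip1 belong, 4 of 22 tested genes fell and 4 rose. Of 23 cell cycle genes, with no member among them, none fell and 4 rose. Over all named genes tested, 4.25% fell and 3.72% rose.

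Other members with the strongest selected falls are unlike in function. Angptl4, a secreted inhibitor of lipoprotein lipase, read 11.43, 11.27, 11.48 and 11.63 in DMSO and 9.61, 9.44, 9.54 and 9.24 in LPS+DMSO. With cordycepin the values were 11.34, 11.29, 11.37 and 11.07 in cultures without LPS and 9.90, 9.60, 9.36 and 9.42 in those with it. Cordycepin alone left Angptl4 within the range of the DMSO arrays on 3 of 4 days, and LPS lowered it 3.25-fold in its presence (SE 0.13 log2, adjusted p = 2.97e-07). Txnip, which binds thioredoxin and limits glucose uptake, read 12.43, 12.12, 12.34 and 12.32 in cordycepin and 11.07, 10.91, 10.93 and 10.71 in LPS+cordycepin (2.64-fold, SE 0.15 log2, adjusted p = 2.03e-05).

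Bmf, a pro-apoptotic BH3-only protein, read 9.47, 9.50, 9.82 and 9.94 in cordycepin and 7.91, 8.04, 8.52 and 8.32 in LPS+cordycepin. All 4 arrays with LPS were more than 1 log2 unit lower than their partner of the same day, a 2.80-fold fall (SE 0.19 log2, adjusted p = 8.31e-05). Alkbh4, a demethylase of the AlkB family, fell 3.72-fold (adjusted p = 3.34e-07), and Gpx2, a glutathione peroxidase, 4.05-fold (adjusted p = 0.000744) with 1 LPS+cordycepin array above background. Cass4, a scaffold protein of focal adhesions, fell 3.41-fold (adjusted p = 1.09e-06) and Pwwp2b, a PWWP-domain chromatin reader, 2.44-fold (adjusted p = 2.47e-05).

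AI467606, a gene without an assigned function here, fell 2.95-fold (adjusted p = 4.89e-08), and 9130008F23Rik, also unassigned, 4.68-fold (adjusted p = 0.000145). Tmem18, a nuclear membrane protein, fell 1.78-fold (SE 0.08 log2, adjusted p = 5.84e-06).

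**Figure D2:**
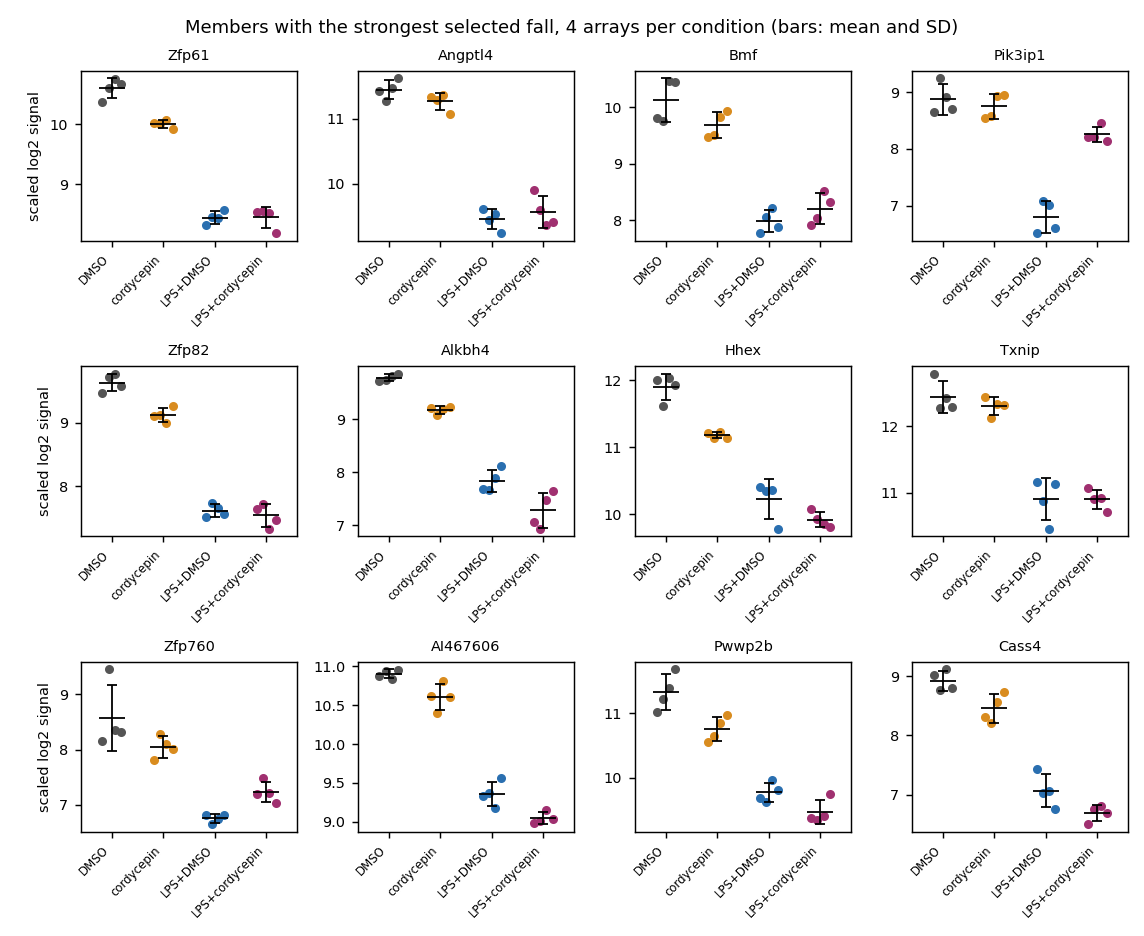
Scaled log2 signal (y axis) on each of the 4 arrays of the 4 conditions (x axis) for the 12 members above background throughout with the strongest selected fall, where the bars give the mean and SD. In 11 of the 12 genes the LPS+cordycepin arrays fell at an adjusted p under 0.05, against 4.5% of all tested probes, and Pik3ip1 is the exception.

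Further members, not named by the rule, are given here with their values known. Efna1, an ephrin ligand of Eph receptors, read 6.91, 7.11, 7.15 and 6.91 in cordycepin and 5.60, 5.77, 5.40 and 4.98 in LPS+cordycepin, a 3.00-fold fall (SE 0.15 log2, adjusted p = 3.72e-06). Its 4 LPS+cordycepin arrays lay more than 1 log2 unit below every cordycepin array, and 1 of them was above background. Fam212a, listed now as Inka1, fell 3.72-fold (adjusted p = 0.00011), the zinc finger gene Zkscan14 3.39-fold (adjusted p = 6.3e-07) and Arhgef4, a guanine nucleotide exchange factor, 2.65-fold (adjusted p = 0.000466). Elp6, a subunit of the Elongator complex that modifies transfer RNA, read 9.58, 9.47, 9.53 and 9.35 in cordycepin and 8.30, 8.23, 8.19 and 8.14 in LPS+cordycepin (2.40-fold, adjusted p = 3.95e-05).

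Other members that passed both limits fell 2.06-fold to 2.57-fold. They were 9930012K11Rik, Zfp647, Zfp287, 2610008E11Rik, Zfp90, Pla2g15 (a lysosomal phospholipase), Tmem86a, Chchd5 (a mitochondrial protein), Pars2 (the mitochondrial prolyl-transfer RNA synthetase), Rreb1 and Pde8b (a phosphodiesterase that degrades cyclic AMP). Those that fell by less than 2-fold at an adjusted p under 0.05 were Zbtb14, Rhebl1, Gm14308, Gdpgp1, Lrrc14b, Gm16515 (now Natd1), Fbxo32 (an F-box protein of muscle wasting), Napb, Lzts2, Tor4a and Erlec1, with differences from -0.99 in Zbtb14 to -0.65 in Erlec1. The call of Napb was lost without replicate 1 (adjusted p = 0.0737).

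The numerically largest difference belonged to Etl4, for which no LPS+DMSO array and 1 LPS+cordycepin array was well above background. It read 7.48, 7.76, 8.05 and 7.99 in DMSO and 6.70, 6.80, 7.68 and 7.55 in cordycepin. In LPS+DMSO the probe read 3.56, 3.88, 2.70 and 4.54, so that DMSO was at least 6.11-fold higher, and in LPS+cordycepin 4.14, 3.50, 3.09 and 5.67. The groups with and without LPS were far apart, and the fitted difference in cordycepin was -3.08 (SE 0.47, adjusted p = 0.000457). Agfg2, an Arf GTPase-activating protein, had the next largest, -2.53 (SE 0.39, adjusted p = 0.00046), also with 1 LPS+cordycepin array above background.

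The 3 receptors tested differed by less than 1 log2 unit. Fcgr1, the high-affinity receptor for immunoglobulin G and itself 1 of the macrophage markers, read 12.11, 13.18, 11.89 and 11.61 in DMSO and 11.51, 11.18, 10.97 and 10.56 in LPS+DMSO. Cordycepin arrays read 12.69, 12.56, 12.32 and 12.34, and LPS+cordycepin arrays 11.88, 11.74, 11.50 and 11.43. These last groups did not overlap and the levels were lower on each day, but the difference of -0.84 had an SE of 0.27 and an adjusted p of 0.0792. Without DMSO replicate 2 in the fit the adjusted p was 0.00778, and with the replicate block 0.0185.

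Gpr146, an orphan G protein-coupled receptor, fell 1.90-fold (adjusted p = 0.000112) and P2rx7, the ATP-gated channel upstream of the inflammasome, 1.78-fold (adjusted p = 0.000303) at the member probe. Cr2, a complement receptor of B cells, was too dim to be tested. Of 34 macrophage surface receptors on a fixed list, none of them a member, 4 fell and 3 rose, against 4.25% and 3.72% of all named genes tested. Stat2, which carries the interferon signal to the nucleus, and Tsc22d3, the glucocorticoid-induced leucine zipper, were chosen after their values were seen and fell 2.15-fold (adjusted p = 0.00113) and 1.78-fold (adjusted p = 0.000707).

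In the ubiquitin system, Fbxo5, an inhibitor of the anaphase-promoting complex, fell 2.13-fold (adjusted p = 0.000413). Klhl21, an adaptor of Cullin 3 ligases, was 1.54-fold lower (adjusted p = 0.0268, but 0.0842 to 0.177 without replicate 1, 2 or 3), while Kbtbd11, another protein of the BTB-Kelch type, differed by -0.48 and did not pass the test (adjusted p = 0.257), although it did without DMSO replicate 2 in the fit (adjusted p = 0.0344). Slc26a11, an anion transporter, fell 2.07-fold (adjusted p = 0.00106).

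**Figure D3:**
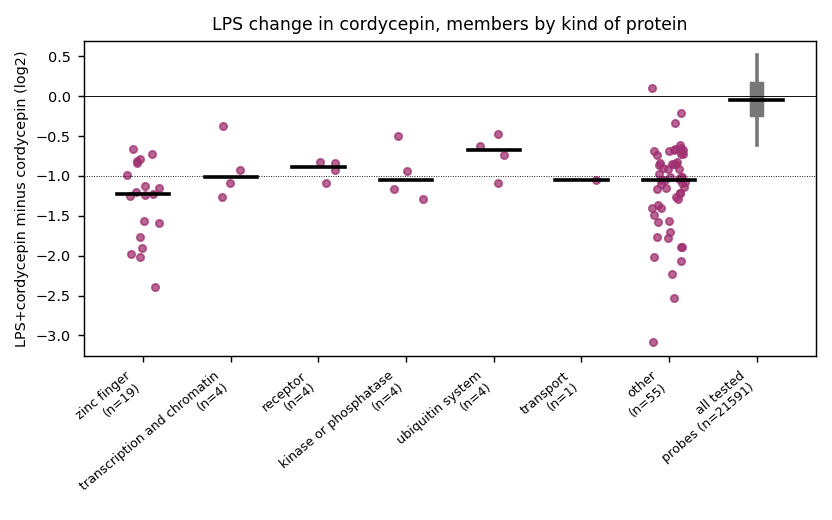
LPS+cordycepin minus cordycepin in log2 (y axis) for each member, by the kind of protein its array description names (x axis), where black lines give medians. The grey bar shows the middle 50% and the grey line the 5th to 95th percentile of all 21591 tested probes. The zinc finger genes have a median of -1.22, and the medians of the other kinds lie between -1.05 and -0.68.

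The level from which LPS started was lower in cordycepin for most members. The difference between cordycepin and DMSO had a median of -0.41 over the members, against 0.04 over all tested probes, and was below 0 in 75 of them and above 0 in 16. Because members had to be high in DMSO and low in LPS+DMSO, random error in those arrays pushes this difference down and the one between LPS+cordycepin and LPS+DMSO up, so neither was tested. By their median, the members in LPS+cordycepin ended at nearly the level of LPS+DMSO, with a difference of 0.00 between them. Single members differed more, with quartiles of -0.31 and 0.46, against -0.15 and 0.20 over all tested probes. The difference was within 0.5 log2 units in 57 of the 91. Set against DMSO, the median member stood at -1.54 in LPS+DMSO and at -1.48 in LPS+cordycepin.

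**Figure D4:**
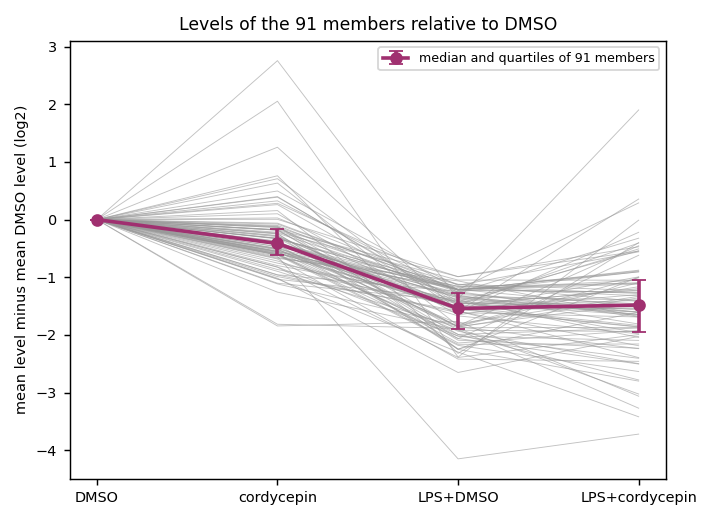
Mean level of each of the 91 members minus its mean in DMSO, in log2 (y axis), in the 4 conditions (x axis), with the median and quartiles of the members in colour. The median drops to -0.41 in cordycepin and lies at -1.54 and -1.48 in the LPS+DMSO and LPS+cordycepin columns, and single lines depart from it in both directions.

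In 8 members cordycepin without LPS gave at least a 2-fold lower level than DMSO. The lowest were 2610008E11Rik at -1.85 and Cbx8 at -1.82, and after them came Zfp398 at -1.26, Cdhr3 at -1.12, Gdpgp1 at -1.10, Pex26 and Zfp128 at -1.03, and Wdr5b at -1.02. For Cdhr3 this rests on DMSO replicate 2, which read 9.98 where the other DMSO arrays read 6.14, 5.71 and 5.35. Pex26, a peroxisomal membrane anchor, is the brightest of the 8, with 10.42, 10.25, 10.58 and 10.53 in DMSO and 9.32, 9.35, 9.55 and 9.43 in cordycepin. In LPS+cordycepin it read 8.49, 8.42, 8.38 and 8.32, lower than in cordycepin (2.01-fold, SE 0.10 log2, adjusted p = 4.77e-06). These arrays were below the LPS+DMSO arrays as well, which lay between 8.90 and 9.25.

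A few members went the other way and were higher with cordycepin than with DMSO. Most were picked with their values in view. Wfikkn1, a secreted protein that binds myostatin, read 8.40, 8.09, 8.12 and 8.11 in DMSO and 10.92, 10.71, 11.13 and 10.99 in cordycepin. LPS+DMSO arrays read 6.80, 6.66, 7.16 and 6.60, and LPS+cordycepin arrays 10.06, 9.83, 10.15 and 10.29. The level with cordycepin was 2.76 log2 units higher without LPS and 3.28 higher with it, and no group overlapped another, while LPS still lowered it 1.81-fold in cordycepin (SE 0.14 log2, adjusted p = 0.000713).

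Mum1, listed now as Pwwp3a, whose PWWP-domain protein takes part in DNA repair, read 6.99, 6.87, 7.82 and 7.55 in DMSO and 9.06, 9.42, 9.47 and 9.48 in cordycepin. In LPS+DMSO it read 4.21, 4.26, 5.10 and 6.12, and in LPS+cordycepin 6.98, 7.47, 7.37 and 7.37. The LPS+cordycepin arrays fell in the range of the DMSO arrays, and the fall from cordycepin was 4.18-fold (SE 0.34 log2, adjusted p = 0.00084). Tceanc2, whose name marks a transcription elongation factor domain, was 1.26 higher in cordycepin than in DMSO and was 1.86-fold lower with LPS (adjusted p = 0.0287), a call lost when any 1 of the 4 replicates was left out (adjusted p from 0.0578 to 0.224). Ugt1a6a, a glucuronosyltransferase, was 0.76 higher and was 2.23-fold lower with LPS (adjusted p = 0.0253, but 0.124 and 0.2 when replicate 3 or 4 was left out). No LPS+DMSO array of Ugt1a6a was well above background, and DMSO was at least 2.59-fold higher.

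With LPS in both conditions, 10 members were at least 2-fold higher in cordycepin. Beside Wfikkn1, Mum1, Tceanc2, Ugt1a6a and Pik3ip1 these were Acrbp, Cr2, Hoxb3, Zfp30 and Zfp473, with differences from 1.08 to 1.50. The 4 that were at least 2-fold lower were Zfp398 (-1.36), 2610008E11Rik (-1.30), Cbx8 (-1.14) and Zfp128 (-1.12).

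Acrbp, known from the sperm acrosome, read 10.07, 10.53, 10.35 and 10.93 in DMSO and 9.23, 8.99, 9.20 and 9.61 in LPS+DMSO. In cordycepin it read 10.58, 10.83, 11.31 and 11.14, and in LPS+cordycepin 10.43, 10.58, 10.98 and 11.05. The cordycepin groups overlapped and their difference was -0.21 (SE 0.21, adjusted p = 0.719), the smallest among the tested members. The adjusted p does not show that LPS left Acrbp alone in cordycepin, since all 4 days were lower.

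**Figure D5:**
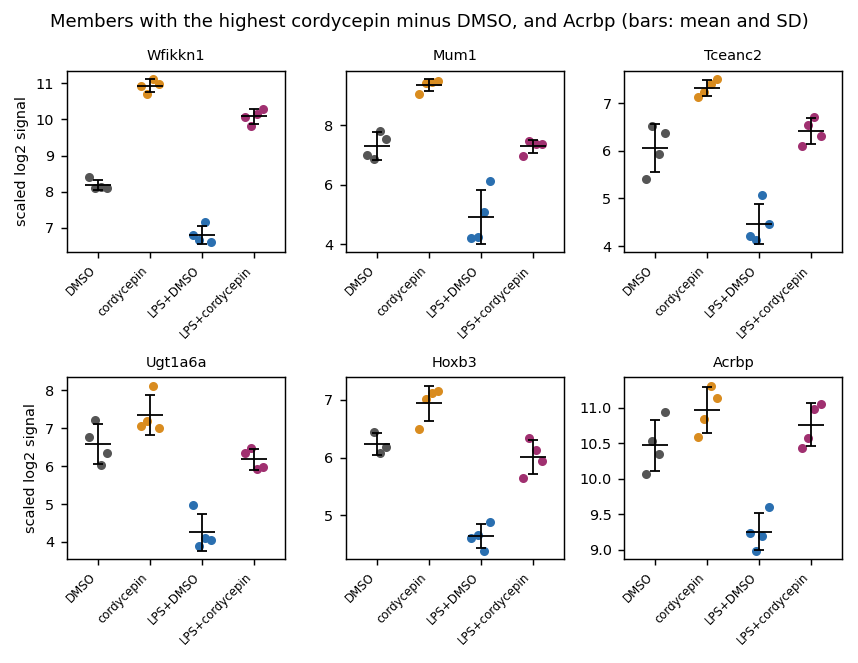
Scaled log2 signal (y axis) on the 4 arrays of each condition (x axis) for the 5 members with the highest cordycepin minus DMSO and for Acrbp, where the bars give the mean and SD. Wfikkn1 lies at 9.83 to 10.29 in LPS+cordycepin, above all its DMSO arrays, and the Acrbp arrays of cordycepin and LPS+cordycepin overlap.

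The 17 tested members that did not pass the test were all lower by their means. They were Kbtbd11, Pbxip1, Fcgr1, Acrbp, B430306N03Rik, Pik3ip1, Vamp1, Gbp11, Snx32, Cdsn, Zfp473, Lipt1, Col4a1, Zfp874b, Frmpd1, Ppp1r3d and Wdr5b. With the replicate block 8 of the 17 passed, namely B430306N03Rik, Fcgr1, Frmpd1, Pik3ip1, Ppp1r3d, Vamp1, Wdr5b and Zfp874b. In 4 of them (Cdsn, Col4a1, Gbp11 and Fcgr1), and in the untested Cdhr3, DMSO replicate 2 lay more than 1 log2 unit above the other DMSO arrays. Cdsn, an adhesion protein of skin, read 7.12, 10.45, 6.56 and 6.41 in DMSO, and its cordycepin arrays (7.20, 6.37, 6.72 and 6.78) overlapped with its LPS+cordycepin arrays (6.82, 5.84, 6.26 and 6.82). Col4a1 read 9.64 and Gbp11, a guanylate-binding protein, 10.51 on that DMSO array, where the next highest DMSO array read 6.93 and 8.14. Without that array in the fit the adjusted p of Col4a1 was 0.0214. Applying the limit without this array gave 103 genes, and of the 99 tested, 51 were called lower in LPS+cordycepin, with a median of -1.05. For Lipt1 the cordycepin and LPS+cordycepin arrays did not overlap, but the difference of -0.97 had an SE of 0.52 (adjusted p = 0.373). Its LPS+DMSO arrays read 3.49, 6.68, 6.71 and 6.35.

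The array carried further tested probes for 18 of the member genes, 24 probes in all, and these show how far a result belongs to a gene or to 1 probe. In LPS+cordycepin against cordycepin 21 of the 24 were below 0, 8 fell at an adjusted p under 0.05 and none rose, with a median of -0.31. Of all tested probes, 4.5% fell and 3.38% rose, and 6450 of the 10954 named genes tested by their brightest probe were below 0. The rule took only features past the limit, so a second probe had not had to meet it. For Txnip (-1.42, adjusted p = 7.04e-05), Cass4 (-3.13, adjusted p = 4.68e-08), Cry2 (-1.33, adjusted p = 1.86e-05) and Napb (-1.22, adjusted p = 0.000201) the second probe fell like the first. Those of Zfp688 (-0.79, adjusted p = 0.000321) and Gdpgp1 (-0.69, adjusted p = 0.019) also fell, and that of Kbtbd11 had 0.69 (adjusted p = 0.303).

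For other genes the further probes mostly gave small differences. Those of Etl4 differed by -0.19 and -0.05 (adjusted p = 0.3 and 0.918), where the member probe had -3.08. The second probe of Agfg2 had -0.30 (adjusted p = 0.381) and that of Rreb1, a Ras-responsive zinc finger protein, 0.02 (adjusted p = 0.958), against -1.05 at the member probe. The 3 further probes of Zfp467 differed by -0.02, -0.09 and -0.88 (adjusted p = 0.963, 0.847 and 0.0286), and that of P2rx7 by -0.15 (adjusted p = 0.765). The further probes of Chchd5 differed by -0.94 and -0.19 (adjusted p = 0.000396 and 0.273), and that of Irf2bp2 by -0.41 (adjusted p = 0.126). The second probe of Mum1 differed by -0.30 with LPS (adjusted p = 0.226) and by -0.07 between cordycepin and DMSO, where the member probe had 2.05. The second probe of Tceanc2 differed by 0.17 and -0.11 in the same comparisons. For Acrbp, both further probes were higher in cordycepin than in DMSO, by 1.66 and 0.58. Between LPS+DMSO and DMSO the 24 further probes had a median of -0.87, with Cass4 at -2.55 and Napb at -1.54. In the same comparison those of Etl4 had -0.40 and -0.32, and those of Zfp467 -0.13, -0.13 and -1.16. The further probe of Agfg2 had -0.22, Mum1 -0.28, Tceanc2 -0.24, P2rx7 -0.40 and Rreb1 -0.05. Which transcripts each probe detects was not tested.

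The genes of the members were shorter than most, with a median span of 14080 bases from start to end in the RefSeq annotation (GRCm38.p6), against 21629.5 bases for the 10940 tested named genes with a span.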

How the data were processed

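The labels describe total RNA from RAW 264.7 cells, labelled with Cy3 by the Agilent Low Input Quick Amp kit, which primes on poly(A) tails. How an inhibitor of polyadenylation could affect such labelling was not tested. The authors extracted spot intensity with Agilent Feature Extraction 10.10.1.1, and the deposited processed intensity was used here. The deposited value table is on a log2 scale, and its normalization and filter are not given in the sources used here. It chose the members, and its columns tracked the scanner values with r of 0.9947 to 0.9980 over the 16 arrays.

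Outlier spots were dropped, spots of a probe averaged, and log2 values set to each array's 75th percentile over 18057 probes well above background on all 16 arrays. Probes above background on all 4 arrays of a condition were tested (21591) in limma 3.58.1 (R 4.3.3) with 4 condition means and Benjamini-Hochberg adjustment. On simulated data for this comparison (21503 probes, independent noise), 91 of 100 changes of 1.5 and 99 of 100 of 2 log2 units were recovered, with 3 false calls. Changes near 1 log2 unit, where the members' median lay, were not simulated, so recovery at that size is not known. Members and lists were chosen with earlier results of these data known. Genes were named as strongest selected falls (12), largest changes in cordycepin (8), list members, nearest to the limit and brightest per kind of protein. Others are said to be chosen after their values were seen, also Chchd5, Elp6, Gdpgp1, Napb, Pex26, Rreb1, 2610008E11Rik, Col4a1 and Gbp11. Of the symbols, 89 were matched by accession. Same-numbered replicates share a culture day by the labels (mean correlation of deviations 0.19, and 0.17 for other numbers on the same slide). Of the members, 1 is counted but not reported by name here.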

Additional observations from a re-analysis of the deposited data

Results flagged for a closer look

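In 247 condition groups of 4 arrays, over 62 of the members named here, 14 (5.67%) had 1 array apart from the other 3, where chance flags about 1 in 20. In DMSO these were Cbx8 replicate 1 at 7.78 (others 8.05 to 8.07), Wfikkn1 replicate 1 at 8.40 (others 8.09 to 8.12), Fbxo5 replicate 2 at 11.62 (others 12.23 to 12.36) and Zfp760 replicate 2 at 9.45 (others 8.14 to 8.36). In cordycepin they were Mum1 replicate 1 at 9.06 (others 9.42 to 9.48), Dusp6 replicate 2 at 11.14 (others 11.03 to 11.04) and Ugt1a6a replicate 3 at 8.12 (others 7.01 to 7.18).

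In LPS+DMSO all 3 were replicate 4, with Elp6 at 7.30 (others 7.83 to 7.90), Gpr146 at 8.57 (others 8.82 to 8.87) and Hhex at 9.79 (others 10.35 to 10.41). In LPS+cordycepin they were Col4a1 replicate 1 at 6.33 (others 5.95 to 5.97), Zfp61 replicate 4 at 8.18 (others 8.51 to 8.56), Pwwp2b replicate 4 at 9.74 (others 9.35 to 9.40) and Zfp688 replicate 4 at 9.47 (others 9.05 to 9.11). Each of these members that was called lower in LPS+cordycepin had groups that did not overlap in that comparison. The other named members were not checked in this way, and among them Lipt1 replicate 1 read 3.49 in LPS+DMSO (others 6.35 to 6.71).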

How the results depend on the processing

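The median difference between LPS+cordycepin and cordycepin, -1.05 as reported, was -0.89 on the authors' value table, -0.87 with arrays scaled to their medians, -1.35 when scaled to spiked-in controls, -0.70 after normexp background correction, -0.94 over probes above background on all 16 arrays and -0.89 with the limit applied to scanner values, which 208 genes met. Median scaling moved the median of all probes to 0.137 and spike-in scaling to -0.345, and under both the members lay 1.01 below it (-1.01), as reported. The 48 members called became 18 of 89 with normexp, 28 of 59 above background on all 16 arrays, 31 on slide 1 alone, 48 on slide 2 alone, 38 on the authors' table and 32 with median scaling. With the brightest feature of each gene chosen before the limit, 42 of 79 tested members were called, with a median of -1.05. The 72 lower at any fold became 47 with spike-in scaling, 56 with median scaling and 40 on slide 1. With the replicate block 51 were called and 80 were lower at any fold, 8 of them gained and none lost, and the block changed no other call. Leaving out each replicate gave 41 to 49 called, medians of -1.07 to -1.004, cordycepin minus DMSO of -0.45 to -0.34, LPS+cordycepin minus LPS+DMSO of -0.04 to 0.03, and 97 to 121 members. The median of LPS+cordycepin minus LPS+DMSO was -0.10 with quantile normalization, -0.28 with median scaling and -0.13 with the all-probe percentile or spike-in scaling, and that of cordycepin minus DMSO was -0.68 with median scaling. The cause of these shifts was not tested. No result reversed. Of the values under alternatives, counted among the 62 members checked for arrays apart, 1077 stayed on their side of the threshold, 89 no longer passed it and 11 came to pass it. Other members named here are not in this count.

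The member genes were chosen on 8 of the 16 arrays, and the feature of each by its mean over all 16. With 4 arrays per condition the precision is limited. Folds of members with few arrays above background are uncertain, and those with none have only a bound, which is not firm for Zfp128. Alternatives that leave out DMSO replicate 2 alone were added after the data were seen.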
